A study of Mus musculus with 6 samples.

Results

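Solute carriers are membrane proteins that move amino acids, sugars, nucleosides, vitamins, metals and inorganic ions across the plasma membrane, the mitochondrial inner membrane and the membranes of the secretory pathway and lysosome. Some let their substrate run down its own gradient, and others couple uphill transport to the sodium, proton or chloride gradients that pumps maintain. They are numbered by family, and genes of 1 family usually carry related substrates, so that family number was used here to sort them by substrate class. A few genes fit their class only in part. The creatine transporter Slc6a8 is counted with the amino acid transporters, and the sulfate transporter Slc26a2 with the carriers of inorganic ions. Embryonic stem cells, which divide fast, take up large amounts of amino acids and glucose through these proteins.

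The genes described are the well expressed solute carriers of mouse embryonic stem cells. They are the genes whose symbol starts with Slc and a digit and whose mean over all 6 libraries was at least 10 CPM, the unit that divides a gene's read count by all counted reads of that library and multiplies by a fixed scale. Of 24421 genes in the table, 373 had such a symbol, 230 of these lay under the level, and 8 (the glucose transporters Slc2a1 and Slc2a3, the lactate transporters Slc16a1 and Slc16a3, the cystine transporter Slc7a11 with its heavy chain Slc3a2, and the zinc transporters Slc30a1 and Slc39a10) were set aside by name, which left 135 members. The mean level and the list of 8 names chose them, and the mean level is given only as a description. The rule does not use the difference between genotypes, but it was set with earlier results of these data known. Just inside the level stood Slc35d1, Slc25a26 and Slc35a2, with means of 10.03, 10.08 and 10.2 CPM, and just outside stood Slc43a1, Slc47a1 and Slc31a2, with 9.23, 9.20 and 9.03 CPM.

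The libraries came from 2 groups of E14 cells, a mouse embryonic stem cell line. The first was 3 libraries of Pml-/- cells and the second 3 libraries of wild-type cells. The Pml protein is the organiser around which PML nuclear bodies form. Both groups were cultured in serum with leukemia inhibitory factor, the GSK3 inhibitor CHIR99021, the MEK inhibitor PD0325901, non-essential amino acids, sodium pyruvate, GlutaMAX, 2-mercaptoethanol and antibiotics, so the medium itself supplied many substrates of these transporters to both groups. All 3 knockout columns carry names that begin with KO34, which could be 1 clone. Whether the replicates were separate cultures is not stated, and the p-values therefore reflect library-to-library spread that could be technical. The comparison asks which transporter transcripts differ in level between Pml-/- and wild-type embryonic stem cells.

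Counted reads numbered 5845653 to 8693079 in the knockout libraries and 9389186 to 11046725 in the wild-type libraries, and each member had at least 525 reads over the 6 libraries. Pml itself stood at 77.3, 75.4 and 76.3 CPM in knockout and 186, 194 and 193 CPM in wild-type libraries, a log2 fold change of -1.31 (SE 0.0412, limma adjusted p = 1.28e-20). All 8 embryonic stem cell markers were detected, with Pou5f1 at 1457 ± 23.2 CPM in knockout and 1447 ± 16.7 CPM in wild-type cells (SD, n = 3 each). Their sums did not overlap, at 7795 to 8013 CPM in knockout and 7591 to 7730 CPM in wild-type libraries. Of the 8, Klf4 (log2 fold change 0.22, limma adjusted p = 8.27e-05) and Tfcp2l1 (log2 fold change 0.18, limma adjusted p = 8.09e-06) were higher. Markers of other cell types also differed. The sum of 8 fibroblast genes was 1343 to 1374 CPM in knockout and 1238 to 1310 CPM in wild-type libraries, and of 5 that were tested 2 were higher and 2 lower. Fn1 made up most of this sum, with means of 1051 CPM in knockout and 856 CPM in wild type. Vim went the other way, with 281 CPM in knockout and 386 CPM in wild type. The 9 primitive endoderm genes summed to 832 to 873 CPM in knockout and 740.0 to 763 CPM in wild-type libraries, with 2 of 5 tested genes higher. Most of that sum was Lamc1, with means of 581 CPM in knockout and 495 CPM in wild type. For 5 neural precursor genes the sums were 87.9 to 97.04 CPM in knockout and 134 to 146 CPM in wild type, and the 3 that were tested were lower. For 7 trophoblast genes the sums were 58.8 to 66.4 CPM in knockout and 65.2 to 67.5 CPM in wild type, with 1 higher and 2 lower of 6 tested. Several defining markers of these types were near 0 in both groups (Col1a1 at 0.658 CPM in knockout and 1.02 CPM in wild type, and Sox17 at 0.202 CPM in knockout and 0.193 CPM in wild type), and Elf5 was at 0. The part of these markers in the results was not tested. In bulk RNA, fewer cells of a type and less RNA per cell cannot be told apart.

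Most solute carriers differed little between the genotypes. Of 135 members, 9 were higher and 13 lower in Pml knockout cells at a limma adjusted p under 0.05, and 113 did not pass. Without wild-type replicate 2, without a filter on low values, and also with DESeq2, 5 members were higher. With the filter and all libraries, limma called 16.3% of the members, against 14.0% of all 12435 genes tested and 15.9% of the 8972 tested genes with a mean of at least 10 CPM. In that fit the share of changed solute carriers was near the background. With DESeq2, 5 members were higher and 11 lower of 135, against 334 and 468 of the 12435 genes. Without the filter, 5 were higher and 13 lower, against 586 and 755 of 18004 genes. In these 2 fits the share of members lay above that of all genes, which include genes of low level. By direction, 6.67% of the members were higher, against 6.54% of all tested genes and 7.79% of those with at least 10 CPM, and 9.63% were lower, against 7.49% and 8.10%. Log2 fold changes ran from -0.64 to 0.38 on the log2(CPM + 1) scale, with a median of 0.02, and the median over all genes tested was 0.00463. The median absolute log2 fold change was 0.0945 for the members, 0.0952 for all tested genes and 0.0776 for those with at least 10 CPM. Of the 113 members that did not pass, 92 had a 95% interval that lay within a 1.25-fold change in either direction. The same held for 6505 of the 7546 tested genes with at least 10 CPM that did not pass. The 3 knockout libraries lay wholly above or below the 3 wild-type libraries for 43 members (31.9%), against 30.2% of all tested genes and 32.1% of those with at least 10 CPM.

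**Figure D1:**
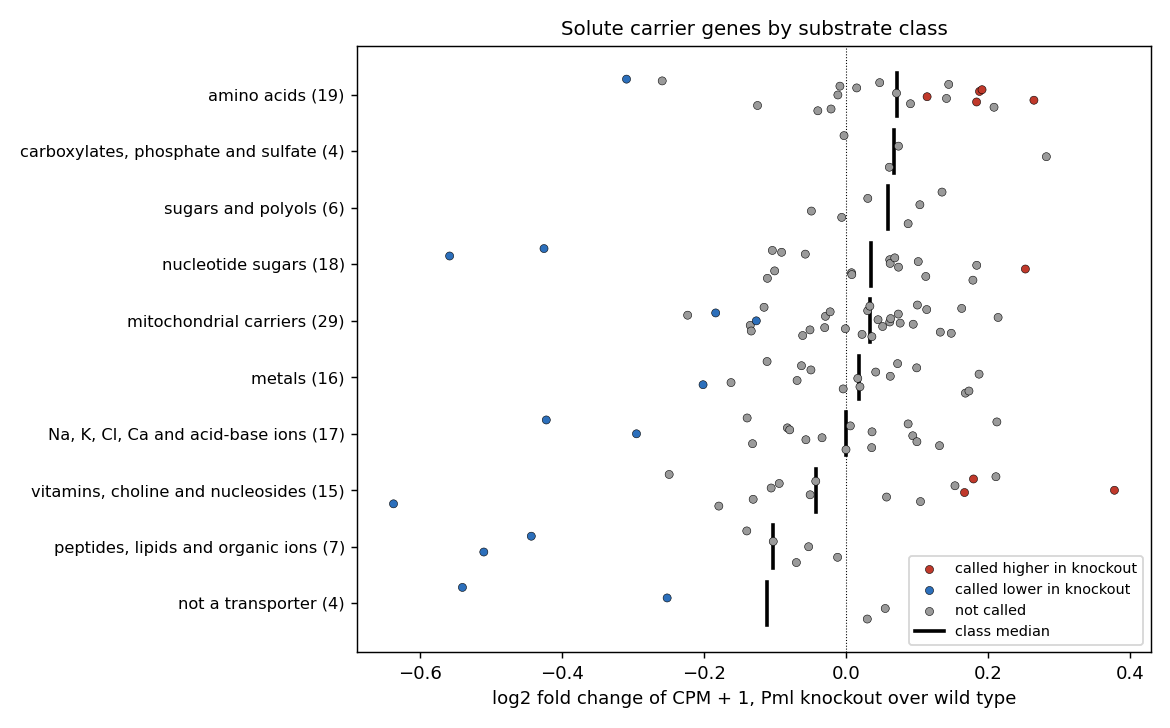
Log2 fold change of CPM + 1 (Pml knockout over wild type, x axis) of each of the 135 members, sorted by substrate class (number of genes in parentheses); red points were called higher, blue points called lower and grey points not called by limma, and black bars are class medians. Members called higher appear in the amino acid, nucleotide sugar and vitamin classes, while the points farthest from 0 lie on the lower side, down to -0.64.

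The members called higher came from 3 classes. They were 5 of 19 amino acid transporters, 3 of 15 carriers of vitamins, choline and nucleosides, and 1 of 18 genes of the nucleotide sugar families. The 13 called lower were spread over 8 classes, with at most 2 in any of them. Limma, edgeR and DESeq2 each called 0 of the 4 members of the carboxylate and phosphate families and 0 of the 6 members of the sugar and polyol families. At an unadjusted limma p under 0.05 these counts were 1 and 0. The lactate and glucose transporters set aside by name are not in these counts. Of these, Slc16a1 was lower (log2 fold change -0.23, limma adjusted p = 8.64e-05) and Slc2a3 higher (0.165, limma adjusted p = 1.58e-05). Slc16a3 and Slc2a1 did not pass. The percentage of genes called was 31.6% among amino acid transporters and 6.90% among mitochondrial carriers. It was 14.0% of all tested genes and 15.9% of those with at least 10 CPM. The median of the mean level was 107 CPM for the amino acid transporters and 31.3 CPM for the mitochondrial carriers. Whether classes differ was not tested.

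**Figure D2:**
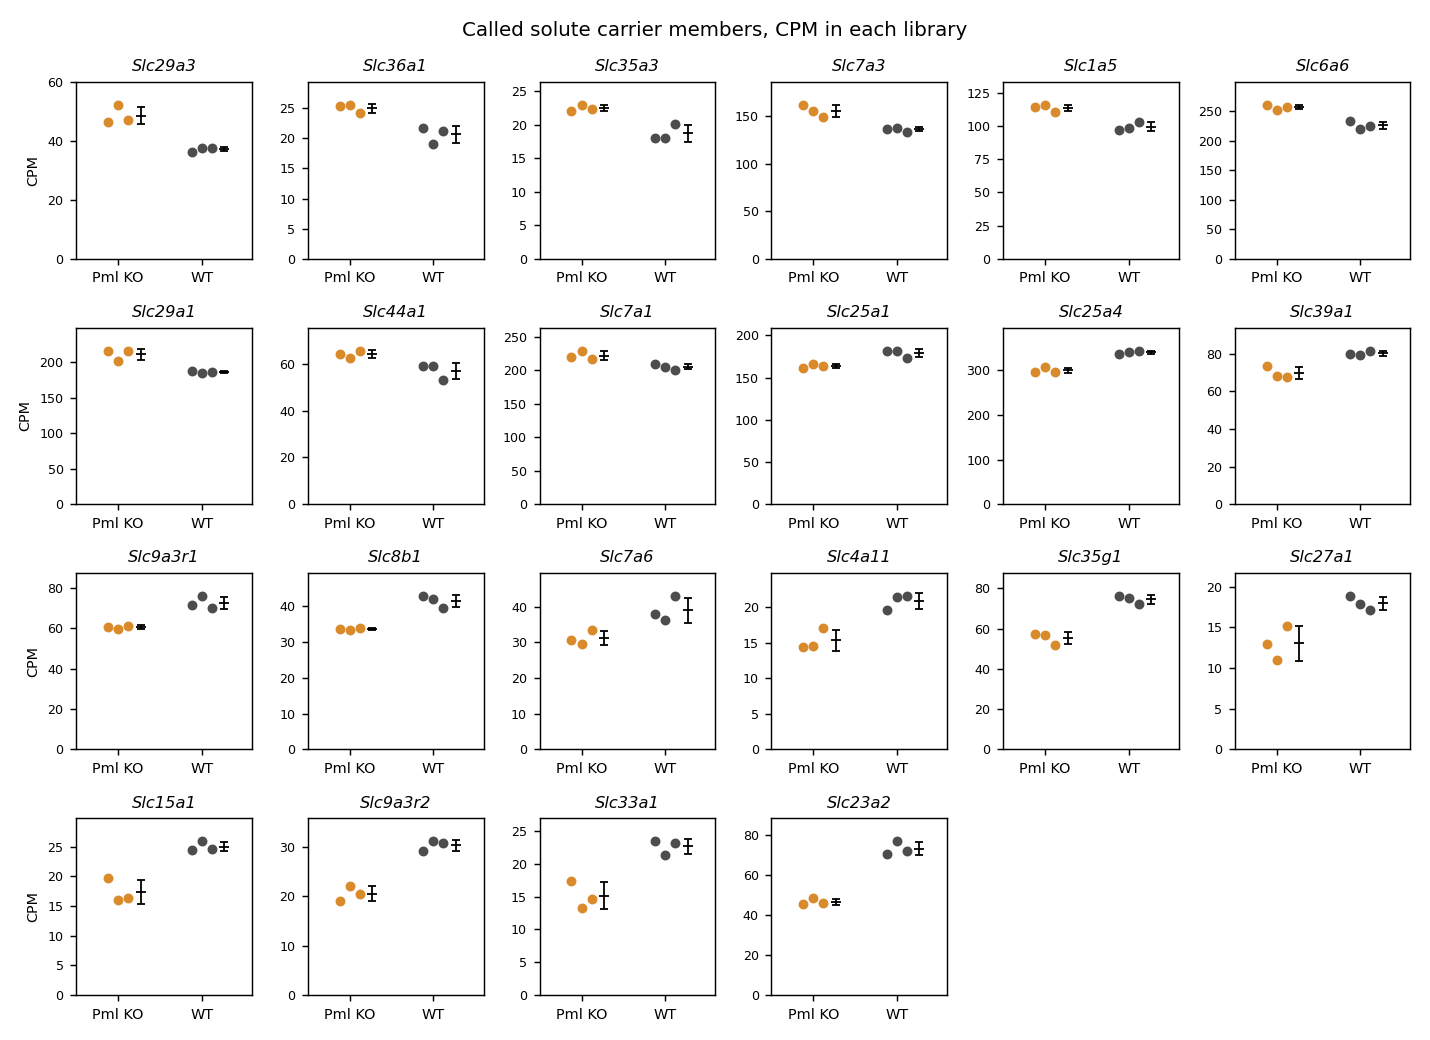
CPM (y axis, from 0) of the 22 called members in each library, with 3 Pml knockout libraries (orange, left) and 3 wild-type libraries (grey, right) per panel, and mean ± SD beside the points. In each panel the 2 groups do not overlap, and panels run from the highest log2 fold change (Slc29a3, 0.38) to the lowest (Slc23a2, -0.64).

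Promoter sequences from RefSeq (build GRCm38.p6, the build mm10 is based on) were found for 100 of the 135 members and 17 of the 22 called. The windows hold 250 bases before and 50 bases after the start of transcription. They are shown for the 2 called members with the largest rise and the 2 with the largest fall among those 17, Slc29a3 (chr10:60752733-60753032, minus strand), Slc36a1 (chr11:55204090-55204389, plus strand), Slc23a2 (chr2:132145059-132145358, minus strand) and Slc33a1 (chr3:63964684-63964983, minus strand), so that the sequences next to the transcripts that moved most can be compared. Capitals mark matches on either strand to the GC box GGGCGG, the CCAAT box CCAAT, the TATA box TATAAA and the E box CACGTG.
Slc29a3: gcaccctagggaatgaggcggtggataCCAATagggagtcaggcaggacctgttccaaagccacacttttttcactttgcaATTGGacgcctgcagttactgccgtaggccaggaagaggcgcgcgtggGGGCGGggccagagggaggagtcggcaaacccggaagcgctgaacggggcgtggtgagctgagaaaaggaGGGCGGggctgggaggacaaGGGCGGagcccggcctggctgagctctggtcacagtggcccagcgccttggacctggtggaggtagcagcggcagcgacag
Slc36a1: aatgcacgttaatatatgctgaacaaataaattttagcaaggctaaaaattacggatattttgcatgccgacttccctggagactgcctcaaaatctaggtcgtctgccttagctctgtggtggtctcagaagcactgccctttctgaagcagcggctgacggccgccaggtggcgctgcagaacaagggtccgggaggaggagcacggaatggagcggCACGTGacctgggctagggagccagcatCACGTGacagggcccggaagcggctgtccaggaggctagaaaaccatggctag
Slc23a2: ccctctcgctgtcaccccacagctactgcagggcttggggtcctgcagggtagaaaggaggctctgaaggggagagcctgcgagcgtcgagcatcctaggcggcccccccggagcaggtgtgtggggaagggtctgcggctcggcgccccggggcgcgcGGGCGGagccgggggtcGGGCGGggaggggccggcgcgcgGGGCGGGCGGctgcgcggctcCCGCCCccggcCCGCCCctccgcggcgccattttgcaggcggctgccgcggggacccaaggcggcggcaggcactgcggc
Slc33a1: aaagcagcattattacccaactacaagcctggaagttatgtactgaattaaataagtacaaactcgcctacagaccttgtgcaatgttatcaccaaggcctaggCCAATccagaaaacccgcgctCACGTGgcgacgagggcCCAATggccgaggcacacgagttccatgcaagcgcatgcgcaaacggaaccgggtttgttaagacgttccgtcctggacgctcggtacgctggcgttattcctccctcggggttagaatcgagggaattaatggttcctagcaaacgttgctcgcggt

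The window of Slc23a2 held 6 GC boxes, 2 of which overlap, and none of the other motifs, and that of Slc29a3 held 3 GC boxes and 2 CCAAT boxes. Slc36a1, the lysosomal amino acid carrier, had 2 E boxes and no other match, and Slc33a1 had 2 CCAAT boxes and 1 E box. A GC box was present in 80 of the 100 member windows, against 69.4% of the windows of 6954 tested genes with a mean of at least 10 CPM and 35.7% of all 32851 windows in the RefSeq table. A CCAAT box was found in 40% of member windows, 40.2% of those at 10 CPM or more and 37.4% of all. The shares with an E box were 13% of member windows, 11.1% of those at 10 CPM or more and 7.15% of all, and with a TATA box they were 6%, 5.85% and 13.6%. A match is a description of these letters and not a bound site.

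Of 19 amino acid transporters, 5 were called higher in the knockout, by 1.08-fold to 1.20-fold, 1 was called lower and 13 did not pass, with a median log2 fold change of 0.07. As shares, 26.3% were higher and 5.26% lower, against 6.54% and 7.49% of all tested genes. Without wild-type replicate 2 or 3 or knockout replicate 2, without a filter on low values, or with DESeq2, 3 of the 19 were called higher. Without knockout replicate 1 the class median was 0.0186. Summed over the class, the reads came to 2181 to 2245 CPM in knockout libraries and 2124 to 2146 CPM in wild-type libraries. Slc7a3 (mm10, chromosome X, 101079210 to 101086020, minus strand), a sodium-independent importer of arginine and lysine, stood at 162, 156 and 149.5 CPM in the Pml knockout libraries, against 137, 138 and 134 CPM in wild type. Each knockout value exceeded each wild-type value, with a log2 fold change of 0.19 (SE 0.0403, limma adjusted p = 0.00134). Its relative Slc7a1 (mm10, chromosome 5, 148327410 to 148399904, minus strand), a cationic amino acid importer that is also the receptor of ecotropic murine retroviruses, had 219, 229 and 218 CPM in knockout and 209, 206 and 201 CPM in wild-type libraries. Its groups did not overlap either, but the difference was small, with a log2 fold change of 0.11 (SE 0.0355, limma adjusted p = 0.0290). The call was lost in 6 of 12 alternative analyses (no filter on low values, DESeq2, and leaving out any wild-type library or knockout replicate 2), with adjusted p from 0.00602 to 0.146.

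Slc1a5 (mm10, chromosome 7, 16781340 to 16798274, plus strand) exchanges neutral amino acids and is a main route of glutamine entry. It measured 115, 116 and 111 CPM in knockout libraries, against 97.2, 98.7 and 103 CPM in wild-type libraries. The lowest knockout value lay above the highest wild-type value (log2 fold change 0.19, SE 0.0439, limma adjusted p = 0.00372). Slc6a6 (mm10, chromosome 6, 91684053 to 91759066, plus strand), the sodium- and chloride-coupled taurine transporter, was at 259.7, 253 and 256 CPM in knockout and 233, 220.0 and 224 CPM in wild type. Again all knockout libraries were above all wild-type libraries, with a log2 fold change of 0.18 (SE 0.0343, limma adjusted p = 0.000349). Slc36a1 (mm10, chromosome 11, 55204350 to 55236330, plus strand), a proton-coupled carrier that exports small amino acids from lysosomes, reached 25.4, 25.5 and 24.2 CPM in knockout and 21.7, 19.1 and 21.3 CPM in wild-type libraries. Its groups did not overlap, and it had the largest positive log2 fold change of the class, 0.26 (95% interval 0.09 to 0.44, limma adjusted p = 0.0315). That call was lost in 7 of 12 alternatives (no filter, DESeq2, and leaving out any knockout library or wild-type replicate 2 or 3), with adjusted p from 0.0166 to 0.199.

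One amino acid transporter was lower. Slc7a6 (mm10, chromosome 8, 106168857 to 106198706, plus strand), which exchanges intracellular cationic for extracellular neutral amino acids, measured 30.7, 29.6 and 33.4 CPM in knockout libraries, against 37.9, 36.1 and 42.9 CPM in wild type. No knockout value reached the wild-type range, with a log2 fold change of -0.31 (SE 0.0740, limma adjusted p = 0.00442); without wild-type replicate 3 the adjusted p was 0.0598, in a range of 0.000221 to 0.0598 over 12 alternatives. Slc7a7, which performs the same exchange, had 17.1, 13.0 and 15.8 CPM in knockout and 19.8, 17.1 and 18.3 CPM in wild type. The ranges touched at 17.1 CPM, and its log2 fold change of -0.26 (95% interval -0.47 to -0.05) did not pass (limma adjusted p = 0.0948). Both work as heterodimers with the heavy chain encoded by Slc3a2, which stood at 222 ± 0.329 CPM in knockout and 224 ± 3.29 CPM in wild-type cells (SD, n = 3 each), with a 95% interval of its log2 fold change from -0.08 to 0.06. Slc7a5, the leucine-importing light chain and the amino acid transporter with the highest level per kilobase of exon (80.0 CPM per kb), was at 285, 307 and 286 CPM in knockout and 306, 301 and 296 CPM in wild-type libraries. These overlapped, and the 95% interval of the log2 fold change ran from -0.11 to 0.03.

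Family 38 holds neutral amino acid transporters, many of them coupled to sodium, and its members named here did not pass. Slc38a4 measured 249.7, 252 and 246 CPM in knockout and 249, 253 and 257 CPM in wild type, with a 95% interval of the log2 fold change from -0.09 to 0.05. For Slc38a2, which cells induce on amino acid shortage, the values were 185, 179.6 and 188 CPM in knockout and 169, 170.1 and 179.6 CPM in wild-type libraries. Here the lowest knockout and highest wild-type values nearly touched, and the log2 fold change of 0.09 did not pass (limma adjusted p = 0.115). Slc1a4, a paralog of Slc1a5, overlapped between groups at 57.9 ± 3.47 CPM in knockout and 52.4 ± 4.26 CPM in wild-type cells (SD, n = 3 each; limma adjusted p = 0.139).

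**Figure D3:**
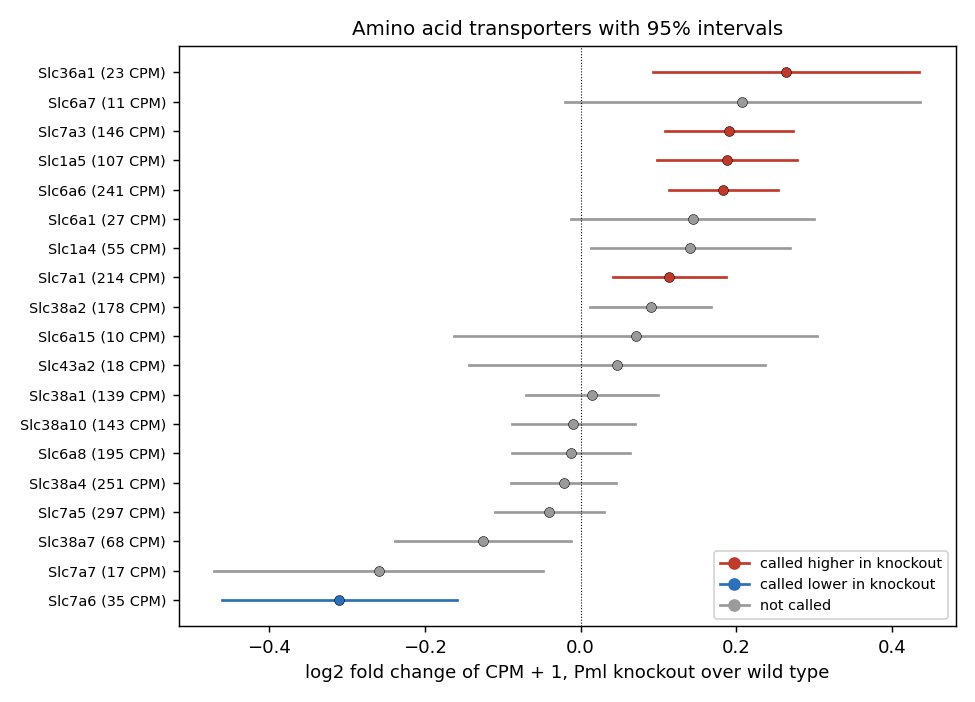
Log2 fold change of CPM + 1 (Pml knockout over wild type, x axis) of the 19 amino acid transporters with 95% intervals from limma; the mean CPM over all 6 libraries stands beside each symbol, red marks called higher, blue called lower and grey not called. The 5 called higher lie between 0.11 and 0.26, and Slc7a6 lies at -0.31.

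The class of vitamin, choline and nucleoside carriers held both ends of the range, the member that fell most and the member that rose most. Slc23a2 (mm10, chromosome 2, 132052496 to 132145108, minus strand), a sodium-coupled transporter of ascorbate (vitamin C), stood at 45.6, 48.4 and 46.2 CPM in Pml knockout libraries, against 70.9, 77.0 and 72.1 CPM in wild-type libraries. The groups lay far apart relative to their spread, with a log2 fold change of -0.64 (SE 0.0555, 95% interval -0.75 to -0.52, limma adjusted p = 7.48e-10). As a ratio of CPM + 1 this was 0.643. Slc29a3 (mm10, chromosome 10, 60712072 to 60752794, minus strand), an equilibrative nucleoside transporter of lysosomes, reached 46.7, 52.2 and 47.3 CPM in knockout and 36.4, 37.6 and 37.7 CPM in wild type. All knockout values were higher, with a log2 fold change of 0.38 (SE 0.0638, limma adjusted p = 9.78e-05), or 1.30-fold.

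Slc29a1 (mm10, chromosome 17, 45585200 to 45599606, minus strand), the equilibrative nucleoside transporter of the plasma membrane, was the other nucleoside carrier that rose. It had 215, 202 and 216 CPM in knockout and 187, 185 and 186 CPM in wild-type libraries, without overlap (log2 fold change 0.18, SE 0.0367, limma adjusted p = 0.00101). The remaining nucleoside carriers had values on the other side of 0 and did not pass, with log2 fold changes of -0.13 for Slc29a2, -0.25 for Slc29a4, which mainly carries monoamines, and -0.18 for the sodium-coupled Slc28a1 (limma adjusted p = 0.399, 0.0855 and 0.116). Slc44a1, a choline transporter, measured 64.5, 62.4 and 65.7 CPM in knockout and 58.9, 59.3 and 53.3 CPM in wild type, and its log2 fold change of 0.17 passed (limma adjusted p = 0.0445) but was lost in 7 of 12 alternatives (no filter, DESeq2, and leaving out any wild-type library or knockout replicate 1 or 3), with adjusted p from 0.0178 to 0.242. Slc19a2, a thiamine transporter, overlapped between groups at 90.3 ± 5.41 CPM in knockout and 93.6 ± 5.12 CPM in wild-type cells (SD, n = 3 each). Over the 15 genes, 3 were higher, 1 was lower and 11 did not pass, with a median log2 fold change of -0.04. These shares were 20% higher and 6.67% lower, against 6.54% and 7.49% of all tested genes.

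Solute carrier families such as SLC33 and SLC35 include carriers that bring activated donors such as nucleotide sugars and acetyl-CoA into the endoplasmic reticulum and Golgi. There glycans and other modifications are built. Members were placed in this class by family number, whether or not their own substrate is such a donor. Of 18 members, 2 were called lower, 1 higher and 15 did not pass, with a median log2 fold change of 0.03. As shares, 11.1% were lower and 5.56% higher, against 7.49% and 6.54% of all tested genes. Slc33a1 (mm10, chromosome 3, 63933507 to 63964768, minus strand), the acetyl-CoA transporter of the endoplasmic reticulum, had 17.4, 13.3 and 14.7 CPM in knockout libraries, against 23.4, 21.4 and 23.2 CPM in wild type. The highest knockout value remained under the lowest wild-type value (log2 fold change -0.56, SE 0.0977, limma adjusted p = 0.000152). Another annotated gene, Gm26850, covers 32.0% of its exon bases, and since strandedness is not given in the sources used here, reads from both cannot be told apart. Slc35g1 (mm10, chromosome 19, 38395980 to 38405610, plus strand) stood at 57.2, 56.8 and 51.7 CPM in knockout and 76.1, 75.2 and 72.1 CPM in wild-type libraries. Its groups were well separated, with a log2 fold change of -0.43 (SE 0.0547, limma adjusted p = 1.46e-06). Slc35a3, the Golgi carrier of UDP-N-acetylglucosamine, was the member called higher, at 22.0, 22.9 and 22.4 CPM in knockout and 18.0, 18.0 and 20.1 CPM in wild type; its adjusted p of 0.0494 by limma lay at the threshold. It was not called in 8 of 12 alternatives (no filter, TMM scaling, DESeq2, and leaving out any knockout library or wild-type replicate 1 or 2), with adjusted p from 0.0331 to 0.256. The members of the class with the most reads, Slc35e1 and Slc35a4, had 95% intervals of the log2 fold change of -0.09 to 0.10 and -0.04 to 0.18.

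Carriers of family 25 mostly exchange metabolites across the mitochondrial inner membrane, with exceptions such as the peroxisomal Slc25a17. Per kilobase of annotated exon they included the most abundant members. Slc25a5, an ADP/ATP carrier, had 438 CPM per kb, followed by the glutathione carrier Slc25a39 with 137, the ADP/ATP carrier Slc25a4 with 136 and the phosphate carrier Slc25a3 with 104 CPM per kb. Of 29 members, 2 were called lower and 27 did not pass by limma, and 22 of those 27 had a 95% interval within a 1.25-fold change in either direction. The share called lower was 6.90%, against 7.49% of all tested genes. The summed level of the 29 members was 3218 to 3289 CPM in knockout and 3232 to 3290 CPM in wild-type libraries.

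Slc25a4 (mm10, chromosome 8, 46206797 to 46211284, minus strand) measured 297, 307 and 296 CPM in Pml knockout libraries, against 337, 342 and 344 CPM in wild-type libraries. Its values were lower in every knockout library, with a log2 fold change of -0.18 (SE 0.0312, limma adjusted p = 0.000104). Slc25a5, which catalyses the same exchange, stood at 689.7, 731 and 721 CPM in knockout and 738, 719 and 730.0 CPM in wild type. These overlapped, and the 95% interval of -0.09 to 0.03 held 0; the difference between the paralogs was not tested. Slc25a1, which exports citrate to the cytosol for lipid synthesis, had 162, 166 and 164 CPM in knockout and 182, 181 and 173 CPM in wild-type libraries, a log2 fold change of -0.13 (SE 0.0373, limma adjusted p = 0.0202). No knockout value reached the lowest wild-type value, but the call was lost in 5 of 12 alternatives (DESeq2, and leaving out wild-type replicate 1 or 2 or knockout replicate 1 or 3), with adjusted p from 0.00445 to 0.102.

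Carriers of inorganic ions and regulators of pH had 2 of 17 members lower and 15 that did not pass by limma. The share called lower was 11.8%, against 7.49% of all tested genes. Slc4a5, a sodium bicarbonate cotransporter that edgeR called higher, measured 117, 106 and 117 CPM in knockout and 107, 102 and 101 CPM in wild type. The groups overlapped slightly, and limma gave a log2 fold change of 0.13 with adjusted p = 0.0563. Slc8b1 (mm10, chromosome 5, 120511168 to 120534024, plus strand), which exchanges sodium for calcium at the mitochondrial inner membrane, stood at 33.4, 33.2 and 33.7 CPM in knockout libraries, against 42.6, 41.7 and 39.4 CPM in wild type. The knockout values lay close together and under all wild-type values (log2 fold change -0.30, SE 0.0658, limma adjusted p = 0.00232). Slc4a11, a proton and ammonia carrier grouped with the bicarbonate transporters by sequence, had 14.4, 14.5 and 17.0 CPM in knockout and 19.6, 21.4 and 21.5 CPM in wild-type libraries and fell by 0.42 on the log2 scale (limma adjusted p = 0.00259). The potassium chloride cotransporter Slc12a7 was at 124, 117 and 122 CPM in knockout and 127, 128 and 128 CPM in wild type, without overlap, but did not pass (log2 fold change -0.08, limma adjusted p = 0.213).

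In the class of peptide, lipid and organic ion carriers all 7 log2 fold changes were below 0, of which 2 passed. Over all tested genes, 6047 of 12435 were below 0 and 7.49% were called lower. Slc10a7, at -0.01, crossed 0 on leaving out 1 library. Families that were given no other class also fall into this class, and a shift of the class was not tested. Slc15a1 (mm10, chromosome 14, 121459621 to 121505252, minus strand), the proton-coupled transporter of dipeptides and tripeptides best known from the intestine, measured 19.6, 15.9 and 16.3 CPM in knockout and 24.4, 25.9 and 24.6 CPM in wild-type libraries. All wild-type values were higher, with a log2 fold change of -0.51 (SE 0.0909, limma adjusted p = 0.000191). Slc27a1, which takes up long-chain fatty acids and activates them, stood at 12.9, 10.9 and 15.2 CPM in knockout, against 18.8, 17.8 and 17.1 CPM in wild type, and fell by 0.44 (limma adjusted p = 0.00503). Its relative Slc27a4 was at 51.3 ± 0.972 CPM in knockout and 53.2 ± 0.949 CPM in wild-type cells (SD, n = 3 each; 95% interval of the log2 fold change -0.17 to 0.06), and Slc10a7 had an interval of -0.15 to 0.12.

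The metal transporters among the members were close to wild type, with 1 of 16 lower and 15 that did not pass by limma, and a median log2 fold change of 0.02. The share called lower was 6.25%, against 7.49% of all tested genes. Of the zinc transporters set aside by name, Slc30a1 was lower (log2 fold change -0.215, limma adjusted p = 0.0213) and Slc39a10 did not pass. Slc39a1 (mm10, chromosome 3, 90248172 to 90253612, plus strand), a zinc importer of the plasma membrane, had 73.6, 68.1 and 67.4 CPM in knockout libraries, against 79.9, 79.2 and 81.6 CPM in wild type. No overlap was seen, with a log2 fold change of -0.20 (SE 0.0506, limma adjusted p = 0.00655, or 0.0523 with DESeq2, in a range of 0.000824 to 0.0523 over 12 alternatives). Slc39a7, which releases zinc from the endoplasmic reticulum and Golgi, had 153, 147 and 157 CPM in knockout and 152, 151 and 141 CPM in wild type and did not pass. The annotation gives 80.7% of its exon bases also to Gm20427.

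The phosphate transporters Slc20a1 and Slc20a2 of the plasma membrane overlapped between genotypes. Slc20a1 measured 163, 171 and 160.1 CPM in knockout and 160.5, 159 and 154 CPM in wild-type libraries (95% interval of the log2 fold change -0.02 to 0.14), and for Slc20a2 the interval was -0.10 to 0.09. Of the sugar and polyol families, the members with the most reads, Slc45a4 and Slc37a3, had intervals of -0.03 to 0.21 and -0.17 to 0.07.

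Of the 135 members, 4 carry a solute carrier symbol without being transporters. Slc9a3r1 and Slc9a3r2 encode scaffold proteins with PDZ domains that tether transporters and receptors to the cortical cytoskeleton, and both were lower. Slc9a3r2 (mm10, chromosome 17, 24639286 to 24650327, minus strand) had 19.1, 22.1 and 20.6 CPM in knockout libraries, against 29.1, 31.2 and 30.8 CPM in wild type, which is a log2 fold change of -0.54 (SE 0.0807, limma adjusted p = 1.71e-05). Slc9a3r1 (mm10, chromosome 11, 115163341 to 115181181, plus strand) stood at 60.9, 59.7 and 61.4 CPM in knockout and 71.4, 76.0 and 70.1 CPM in wild type (log2 fold change -0.25, SE 0.0523, limma adjusted p = 0.00114). For each scaffold the groups were separate. Slc4a1ap and Slc7a6os, the other two, had 95% intervals of -0.10 to 0.16 and -0.09 to 0.20. Without these 4 genes, 9 transporters were higher and 11 lower of 131.

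By position, members on chromosome 8 lay mostly below wild type. Of 11, 9 had log2 fold changes below 0 and 3 were called lower (Slc7a6, Slc25a4 and Slc27a1), with a median of -0.06. Elsewhere 53 of 124 members were below 0, with 9 higher, 10 lower and a median of 0.03. Over all tested genes, 66.7% of those on chromosome 8 were below 0, with a median of -0.05 and 13.9% called lower, and 47.6% elsewhere, with a median of 0.00763 and 7.15% called lower. The part of this shift in the 3 calls was not tested.

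**Figure D4:**
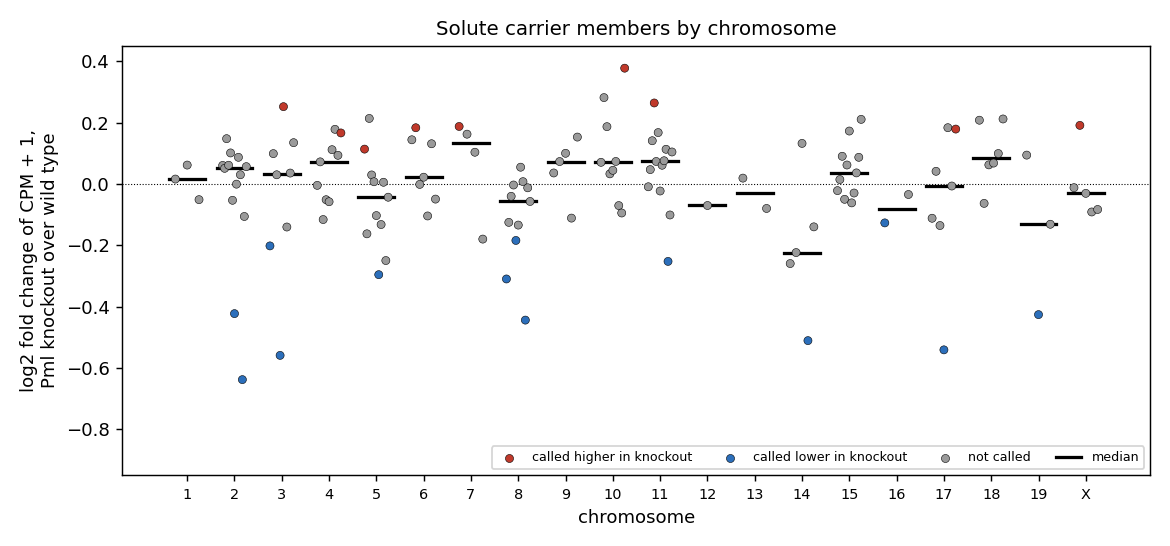
Log2 fold change of CPM + 1 (Pml knockout over wild type, y axis) of the members by chromosome (x axis); red points were called higher, blue called lower and grey not called, and black bars are medians. On chromosome 8, 9 of 11 members lie below 0 and none is called higher.

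Other transport genes were read from lists chosen by function. Of 16 tested genes of the proton-pumping V-ATPase, 1 was higher (Atp6ap1, log2 fold change 0.27) and 2 lower (Atp6v0e, -0.31, and Atp6v1h, -0.23). Over all tested genes 6.54% were higher and 7.49% lower.

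Among 30 tested carriers under other symbols, 5 were lower and 1 higher, where 7.49% of all tested genes were lower and 6.54% higher. Mpc1, a subunit of the mitochondrial pyruvate carrier, had 10.2, 10.1 and 11.5 CPM in knockout, against 16.7, 18.3 and 16.8 CPM in wild type, without overlap (log2 fold change -0.66, SE 0.104, limma adjusted p = 3.67e-05). Its partner subunit Mpc2 overlapped between groups and did not pass (log2 fold change -0.09, limma adjusted p = 0.650). Of 20 tested ATP-driven ABC transporters, 4 were higher and 2 lower, where 6.54% of all tested genes were higher and 7.49% lower. Among them the cholesterol exporters moved both ways. Abca1 was higher, with 23.3, 21.7 and 20.6 CPM in knockout and 14.7, 14.9 and 13.5 CPM in wild type (log2 fold change 0.57, limma adjusted p = 5.66e-05), and Abcg1 was lower, with 10.81, 9.24 and 11.39 CPM in knockout and 14.39, 14.33 and 14.27 CPM in wild type (log2 fold change -0.42, limma adjusted p = 0.00843). Of 13 partner and regulator genes, 3 were lower and 10 did not pass by limma, where 7.49% of all tested genes were lower. Laptm4b, which recruits Slc7a5 and Slc3a2 to lysosomes, was lower with a log2 fold change of -0.47. The others called lower were the ubiquitin ligase Nedd4l, with -0.40, and Emb, an ancillary protein of lactate carriers, with -0.39.

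In the authors' deposited table, made with edgeR, all 13 members called lower here and 5 of the 9 called higher had an FDR under 0.05 in the same direction, and no further member did. The authors' deposited table puts 12.3% of the genes tested here under that FDR.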

How the data were processed

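Polyadenylated RNA of 3 Pml knockout and 3 wild-type libraries was measured by RNA-seq, with groups taken from the sample labels. Per the submitters' processing notes the tools were cutadapt, TopHat and edgeR and the build mm10; versions, strandedness, the annotation and the treatment of reads that match several places were not stated in any label or header used. The authors deposited 1 table with CPM per library and their own edgeR log2 fold changes, p-values and FDR. The deposited CPM were whole multiples of 1 read in 100% of values, within a tolerance of 0.01 reads, so that reads and library totals could be recovered; 3 reads amount to 0.272 CPM in the largest and 0.513 CPM in the smallest library. Such floors cover counting error only.

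Of 25833 rows, 1097 without values and 315 repeats were left out. The test was limma 3.58.1 (trend) in R 4.3.3 on log2(CPM + 1) for the 12435 genes that pass edgeR's filter on recovered reads, with Benjamini-Hochberg adjustment over all of them and a threshold of 0.05; the pseudocount understates the change of low genes. Positions and exon lengths came from GENCODE M21. The script was tested on simulated data. Alternatives were a pseudocount of 0.5, no filter on low values, TMM scaling, edgeR 4.0.16 and DESeq2 1.42.0 on recovered reads, a replicate block, and leaving out each library. Members, gene lists and substrate classes were chosen with earlier results of these data known. Genes were named as Pml, the called members with the largest change in each class and direction (up to 5), the 2 members of each class with the highest mean CPM, those at the level that chose the members, and up to 3 called genes of each list. Slc7a7, Slc38a2, Slc1a4, Slc29a2, Slc29a4, Slc28a1, Slc7a6os, Slc25a39, Mpc2, Slc25a17 and the marker genes were added after their values were seen. So were Slc6a8, Slc26a2 and the results for Slc2a1, Slc2a3, Slc16a1, Slc16a3, Slc30a1 and Slc39a10. Some results on other transport genes are not reported here.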

Additional observations from a re-analysis of the deposited data

How the results depend on the processing

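Of the 22 called members, 15 were called under all 12 alternatives (5 higher, 10 lower), and 0 of the 22 changed direction. The count of members called higher fell to 5 without a filter on low values and to 5 with DESeq2, against 9 with limma, and was 5 to 9 when 1 library was left out; members called lower numbered 12 to 15 then, against 13. Over all genes DESeq2 called 334 higher and 468 lower, and leaving out 1 library gave 512 to 872 higher and 632 to 980 lower. With the replicate block, 13 members were higher and 15 lower, and over all genes 1138 and 1199; same-numbered libraries deviated together with correlations of 0.0755, 0.0603 and 0.0136, so the numbers were not taken to pair the libraries, although each knockout library correlated best with its own number. Median log2 fold changes on leaving out 1 library ran from 0.00317 to 0.0323 for all members, 0.0186 to 0.0905 for amino acids, 0.0435 to 0.0927 for carboxylates and phosphate, 0.000565 to 0.0406 for metals, 0.00309 to 0.0442 for mitochondrial carriers, 0.0122 to 0.0448 for nucleotide sugars, -0.142 to -0.0555 for peptides, lipids and organic ions, -0.0640 to 0.0342 for inorganic ions, 0.0215 to 0.0708 for sugars (0.0535 with edgeR) and -0.0624 to 0.0278 for vitamins, choline and nucleosides. Uncalled members that crossed 0 then were Slc10a7 (-0.0509 to 0.0151), Slc20a2 (-0.0271 to 0.0394), Slc35e1 (-0.0102 to 0.0300), Slc37a3 (-0.0775 to 0.00490) and Slc4a1ap (-0.00933 to 0.0579). Class counts of calls moved by over 1.5 times, or away from 0, in 31 of 240 alternative values. The 240 include classes whose count was 0 in every alternative, such as carboxylates and phosphate. Counts called higher moved more often for amino acids, from 5 to 3, and for nucleotide sugars, from 1 to 0 or 2. Some of these alternatives left out a library and others kept every library, and the cause was not tested.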
